A study of Mus musculus with 16 samples.

Results

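The expression of 10 genes that mark macrophages was examined in B16F10 melanomas, out of 45777 genes listed per tumor. The rows were found by their gene symbols: Lyz2, Cd68, Csf1r, Adgre1, Cd14, Mrc1, Cd163, Itgam, Arg1 and Nos2. Of these, 9 had a count above 0 in every tumor and were tested, as were 16209 of all genes. Cd163 had a count of 0 in lean tumor 3 before therapy, and its fold changes come from a fit without the exclusion of such genes.

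B16F10, a melanoma line from C57BL/6 mice, had been injected under the skin of the abdominal flank of 6-week-old lean mice, labelled B6, or obese ob/ob mice, which lack leptin. RNA of whole tumors was sequenced in 16 libraries, 4 for each of the 4 groups. The lean and obese tumors before therapy (titled ctrl) came from mice given no etoposide (ETS), a topoisomerase II inhibitor that breaks DNA, and whether these mice received vehicle is not given in the sources used here. The tumors after ETS were taken a day after a course of 5 intraperitoneal doses of 20 mg per kg. When the tumors before therapy were taken is not given in the sources used here, so a difference in growth time and the drug cannot be told apart. The tumors are numbered 1 to 4 in each group, and since no label ties a tumor to an animal, p-values measure only the spread between these tumors.

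Macrophages are phagocytes of the innate immune system. In tumors they arise largely from blood monocytes, are kept alive by colony-stimulating factor 1, and clear dead cells and debris. Their state is often described along an axis. At the inflammatory end, interferon gamma and bacterial products induce Nos2, which turns arginine into nitric oxide, whereas interleukin 4, interleukin 10, glucocorticoids or hypoxia favor Arg1, which turns the same arginine into ornithine, and the scavenger receptors Mrc1 and Cd163. Macrophages in tissue rarely sit at either end, and none of the 10 genes is fully restricted to macrophages. Neutrophils carry Lyz2 and Itgam, and other myeloid cells carry Cd14 and Arg1.

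On the GRCm38.p6 assembly of the mm10 build, the genes lie on chromosomes 2 (Mrc1), 6 (Cd163), 7 (Itgam), 10 (Lyz2 and Arg1), 11 (Cd68 and Nos2), 17 (Adgre1) and 18 (Csf1r and Cd14). Lyz2 spans chr10:117277541-117282272 on the minus strand, next to its paralog Lyz1 at chr10:117287795-117292868, with which its reads could be shared. The annotation places Hmgxb3 on the opposite strand over Csf1r, Mir511 within Mrc1 and Gm49368 over Itgam, and the reads of such overlapping genes could also have been shared. Promoters are shown for 5 members that have an entry in the promoter table used here. They are the 250 bases before the RefSeq start site, written in the direction of the gene, with GAGGAA or its complement TTCCTC in capitals. These are the core letters bound by PU.1 (Spi1), the factor that commits cells to the macrophage lineage. The windows are chr2:14229164-14229413 (plus strand), chr7:128062390-128062639 (plus), chr11:69666171-69666420 (minus), chr10:117282273-117282522 (minus) and chr6:124304401-124304650 (plus).
Mrc1: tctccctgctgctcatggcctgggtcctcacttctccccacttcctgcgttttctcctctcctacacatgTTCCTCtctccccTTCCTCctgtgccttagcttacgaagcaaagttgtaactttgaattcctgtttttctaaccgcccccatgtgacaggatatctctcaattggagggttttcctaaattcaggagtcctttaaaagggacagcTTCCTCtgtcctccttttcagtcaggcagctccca
Itgam: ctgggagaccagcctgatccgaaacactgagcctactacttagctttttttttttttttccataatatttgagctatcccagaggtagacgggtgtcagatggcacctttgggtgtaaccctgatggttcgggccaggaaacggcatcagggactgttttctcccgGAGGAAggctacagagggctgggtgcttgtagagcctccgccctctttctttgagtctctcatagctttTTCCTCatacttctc
Cd68: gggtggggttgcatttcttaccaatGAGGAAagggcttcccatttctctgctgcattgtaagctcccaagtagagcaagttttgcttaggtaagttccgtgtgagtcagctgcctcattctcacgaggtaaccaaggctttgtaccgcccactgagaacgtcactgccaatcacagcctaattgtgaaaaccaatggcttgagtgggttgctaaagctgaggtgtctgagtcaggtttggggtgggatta
Lyz2: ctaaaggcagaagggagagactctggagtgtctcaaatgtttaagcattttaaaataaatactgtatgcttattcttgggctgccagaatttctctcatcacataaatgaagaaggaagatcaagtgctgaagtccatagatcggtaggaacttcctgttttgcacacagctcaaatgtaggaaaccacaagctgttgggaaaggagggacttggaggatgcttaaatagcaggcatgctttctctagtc
Cd163: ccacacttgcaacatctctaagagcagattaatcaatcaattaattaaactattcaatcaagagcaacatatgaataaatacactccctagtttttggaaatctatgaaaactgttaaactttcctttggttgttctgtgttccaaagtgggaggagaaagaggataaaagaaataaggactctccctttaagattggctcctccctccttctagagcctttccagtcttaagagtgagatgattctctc
The core was found 3 times for Mrc1, 2 times for Itgam, 1 time for Cd68 and not in the windows of Lyz2 and Cd163, on either strand. The same letters were found in 23.3% of 32851 mouse promoters of this length. The window of Cd68 also held TGANTCA, the letters of an AP-1 site, 2 times, as did 6.75% of all promoters at least once.

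Counts summed to between 47199949 and 61655287 per tumor, and levels are given as CPM, counts scaled to the size of each library by TMM. Skeletal muscle markers (Acta1, Ckm and 4 others) summed to between 44.6 and 319 CPM in 5 tumors, namely lean tumors 2 and 4 before therapy, lean tumors 1 and 2 after ETS and obese tumor 2 after ETS, and to at most 4.77 CPM in the other tumors. Obese tumor 4 after ETS also stood apart, with fibroblast markers summing to 5778 CPM against 723 to 1944 CPM in the other obese tumors after ETS. Counts of members without these tumors are given beside the results. The fit without the 5 tumors with muscle markers kept lean tumors 1 and 3 before therapy and lean tumors 3 and 4 after ETS. It also kept obese tumors 1, 3 and 4 after ETS and every obese tumor before therapy. The share of all tested genes was not taken for that fit, so its counts have no background beside them. The melanocyte markers of the B16F10 cells summed to between 11327 and 28279 CPM in every tumor.

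In lean tumors, macrophage genes were lower after ETS than before therapy. Of the 9 tested members, 6 fell at an adjusted p under 0.05 (Lyz2, Cd68, Csf1r, Adgre1, Itgam and Nos2) and none rose, against 22.8% of all tested genes that fell and 21.0% that rose. The median log2 fold change was -2.38 over the members and -0.01 over all tested genes. In obese tumors, the same comparison gave the opposite direction: 6 members rose (Cd68, Csf1r, Mrc1, Itgam, Arg1 and Nos2) and none fell, against 21.2% of all tested genes that rose and 19.0% that fell, and the median was 2.25 over the members and 0.01 over all tested genes. In bulk tumors, fewer macrophages and less RNA per macrophage cannot be told apart.

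**Figure D1:**
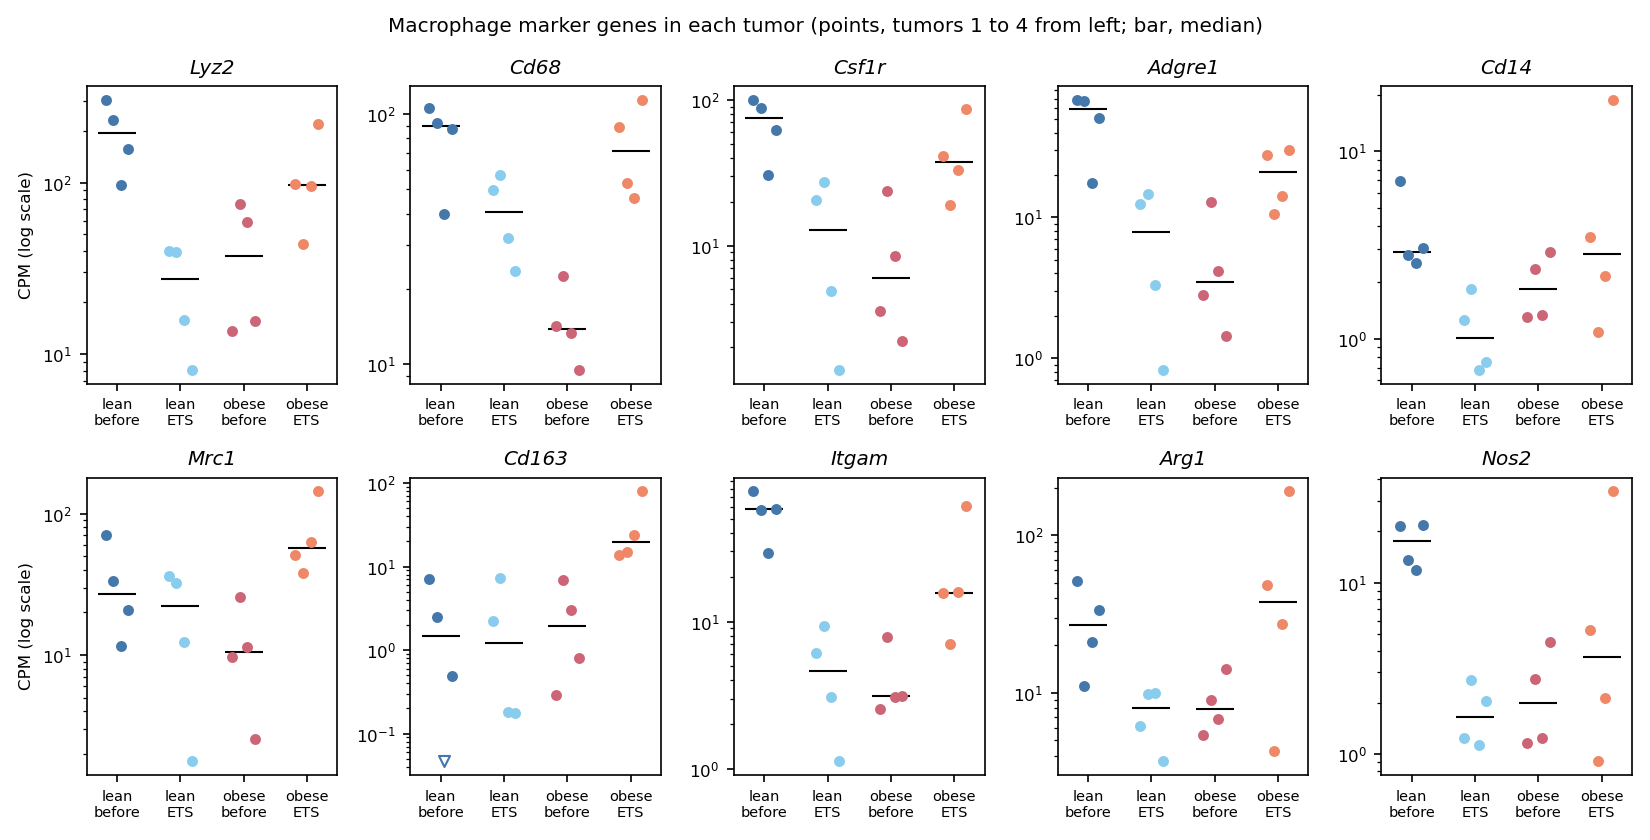
The level of each of the 10 macrophage genes in each tumor, in CPM on a log axis, for lean tumors before therapy, lean tumors after ETS, obese tumors before therapy and obese tumors after ETS. Points are tumors 1 to 4 from left to right, bars are medians, and the open triangle is the limit that a count of 0 allows for Cd163 (0.0464 CPM). Itgam in lean tumors lies between 29.2 and 77.1 CPM before therapy and at or below 9.37 CPM after ETS, and obese tumor 4 after ETS holds the highest point of its group for every gene.

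Of the receptors that mark the lineage, Csf1r and Itgam were called in both hosts, Adgre1 in lean tumors alone and Cd14 in neither. Csf1r encodes the receptor for colony-stimulating factor 1 and interleukin 34. It was at 100.6, 88.5, 30.6 and 62.4 CPM in lean tumors 1 to 4 before therapy and at 20.7, 27.4, 4.89 and 1.40 CPM after ETS. In obese tumors it was at 3.53, 23.6, 8.52 and 2.23 CPM before therapy and at 41.5, 19.1, 33.1 and 86.7 CPM after ETS. Every lean tumor before therapy was above every lean tumor after ETS, whereas in obese tumors the highest tumor before therapy, tumor 2, lay above the lowest after ETS. The log2 fold change of Csf1r was -2.38 ± 0.82 in lean tumors (SE, n = 4 and 4, adjusted p = 0.0290, edgeR's quasi-likelihood test) and 2.25 ± 0.82 in obese tumors (adjusted p = 0.0400). With single tumors left out, the lean call was lost in 4 and the obese call in 5 of 16 fits.

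Adgre1 encodes F4/80, the adhesion receptor by which mouse macrophages are usually recognized. In lean tumors it was at 68.9, 67.0, 17.7 and 50.9 CPM before therapy and at 12.5, 14.6, 3.31 and 0.823 CPM after ETS. The groups did not overlap, and Adgre1 fell by 2.72 ± 0.78 on the log2 scale (adjusted p = 0.0110). In obese tumors it was at 2.81, 12.8, 4.15 and 1.43 CPM before therapy and at 27.9, 10.5, 14.3 and 30.0 CPM after ETS. Only tumor 2 before therapy and tumor 2 after ETS crossed, and the difference of 1.97 ± 0.76 did not pass the threshold in obese tumors (adjusted p = 0.0506).

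Itgam encodes CD11b, the alpha chain of complement receptor 3. It was at 77.1, 57.0, 29.2 and 58.5 CPM in lean tumors before therapy and at 6.15, 9.37, 3.10 and 1.12 CPM after ETS, an 11.3-fold fall with no overlap (log2 fold change -3.49 ± 0.69, adjusted p = 0.00113). Obese tumors held 2.54, 7.84, 3.06 and 3.14 CPM before therapy and 15.5, 7.001, 15.8 and 61.2 CPM after ETS. The highest tumor before therapy lay just above the lowest after ETS, and Itgam rose by 2.59 ± 0.67 (adjusted p = 0.00734). Without obese tumor 4 after ETS, it rose by 1.64 (adjusted p = 0.0294). Itgam showed the largest difference between the effects of ETS in obese and lean tumors among the members, with 6.08 ± 0.97 on the log2 scale (adjusted p = 0.000616).

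Cd14, the co-receptor that hands bacterial lipopolysaccharide to Toll-like receptor 4, was at 6.96, 2.80, 2.55 and 3.03 CPM in lean tumors before therapy and at 1.27, 1.84, 0.680 and 0.753 CPM after ETS. These groups did not overlap, yet the log2 fold change of -1.76 ± 0.71 missed the threshold (adjusted p = 0.0552). In obese tumors, 1.30, 2.35, 1.34 and 2.91 CPM before therapy stood against 3.48, 1.09, 2.15 and 18.9 CPM after ETS. Without tumor 4 after ETS, the log2 fold change of Cd14 in obese tumors went from 1.70 ± 0.70 (adjusted p = 0.0638) to 0.19 (adjusted p = 0.778).

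Of the products of granules and lysosomes, Lyz2 was called in lean tumors and Cd68 in both hosts. Lyz2, the lysozyme of myeloid cells, was the most abundant member per length in lean tumors before therapy, at 393 ± 154 TPM (SD, n = 4), a unit that corrects for length. It was at 305, 231, 96.7 and 156 CPM in lean tumors before therapy and at 40.0, 39.1, 15.8 and 8.07 CPM after ETS. All lean tumors after ETS were below all lean tumors before therapy, and Lyz2 fell by 2.94 ± 0.67 on the log2 scale (adjusted p = 0.00277). In obese tumors it was at 13.7, 75.0, 59.0 and 15.6 CPM before therapy and at 97.7, 43.9, 95.4 and 219 CPM after ETS, with tumor 2 after ETS below 2 of the tumors before therapy. The difference in obese tumors was 1.48 ± 0.63 (adjusted p = 0.0729). Its paralog Lyz1 was at 3.33 ± 2.89 CPM in lean tumors before therapy, and also fell in lean tumors (log2 fold change -3.02 ± 0.88, adjusted p = 0.0122).

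Cd68, a glycoprotein of lysosomes and endosomes, had the smallest fold change in lean tumors among the members that fell. It was at 105, 92.4, 39.7 and 87.5 CPM before therapy and at 49.8, 57.0, 31.9 and 23.7 CPM after ETS, so that tumor 3 before therapy lay below tumors 1 and 2 after ETS. Cd68 fell by 1.002 ± 0.36 in lean tumors (adjusted p = 0.0363), a call lost in 5 of 16 fits that left out 1 tumor. In obese tumors, where it was at 14.2, 22.7, 13.3 and 9.50 CPM before therapy and at 88.8, 53.2, 46.2 and 114 CPM after ETS, the groups were well apart. It rose by 2.34 ± 0.38 (adjusted p = 0.000346) and was called in each of these 16 fits.

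The state markers were compared next. Nos2, the inducible nitric oxide synthase, was at 21.5, 13.6, 11.8 and 21.7 CPM in lean tumors before therapy and at 1.25, 2.72, 1.13 and 2.03 CPM after ETS. The groups were separate, with a 9.64-fold fall (log2 fold change -3.27 ± 0.86, adjusted p = 0.00714). In obese tumors it was at 1.16, 2.73, 1.24 and 4.49 CPM before therapy and at 5.28, 0.906, 2.12 and 34.2 CPM after ETS. The groups overlapped widely, and tumor 4 stood far above the other tumors. Nos2 rose by 2.14 ± 0.83 (adjusted p = 0.0497), a call that was lost in 13 of 16 fits that left out 1 tumor, and without obese tumor 4 after ETS the log2 fold change was 0.20 (adjusted p = 0.792).

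Arg1, the arginase that competes for the substrate of Nos2, was at 51.6, 11.1, 20.9 and 33.4 CPM in lean tumors before therapy and at 6.20, 9.87, 10.02 and 3.68 CPM after ETS. Lean tumors did not overlap, but the log2 fold change of -1.98 ± 0.78 did not pass the threshold (adjusted p = 0.0508). In obese tumors it was at 5.44, 8.97, 6.88 and 14.2 CPM before therapy and at 48.4, 4.30, 27.4 and 191 CPM after ETS, a 44.3-fold range within the group after ETS. Arg1 rose by 2.93 ± 0.80 (adjusted p = 0.00988). Without tumor 4 after ETS, it went to 1.59 (adjusted p = 0.0557).

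Mrc1, the mannose receptor CD206, was not called in lean tumors. It was at 70.8, 33.1, 11.7 and 20.9 CPM in lean tumors before therapy and at 36.1, 32.3, 12.5 and 1.77 CPM after ETS. The groups overlapped over most of their range, with a log2 fold change of -0.72 ± 0.77 (adjusted p = 0.464). In obese tumors the values were 9.63, 25.6, 11.4 and 2.56 CPM before therapy and 51.1, 38.0, 63.1 and 144 CPM after ETS. Here the groups did not overlap, and Mrc1 rose by 2.59 ± 0.81 (adjusted p = 0.0201). Without obese tumor 4 after ETS, the groups still did not overlap, and the log2 fold change was 2.06 (adjusted p = 0.0545).

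Cd163, the scavenger receptor for hemoglobin bound to haptoglobin, was at 7.01, 2.46, 0 and 0.492 CPM in lean tumors before therapy. The 0 in tumor 3 allows up to 0.0464 CPM by counting error alone. Lean tumors after ETS held 2.25, 7.31, 0.179 and 0.175 CPM, and obese tumors before therapy 0.289, 6.82, 3.05 and 0.795 CPM. These groups all overlapped. Obese tumors after ETS held 13.7, 14.9, 23.999 and 80.1 CPM and lay above all other tumors of the series. In the fit without the exclusion of low counts, the log2 fold change of Cd163 was 3.60 ± 1.32 in obese tumors (adjusted p = 0.0672). In lean tumors it was -0.07 ± 1.23 (adjusted p = 1), and neither was called.

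The groups before and after ETS did not overlap in lean tumors for 7 of the 9 tested members (Lyz2, Csf1r, Adgre1, Cd14, Itgam, Arg1 and Nos2), all lower after ETS, against 20.3% of all tested genes. In obese tumors this held for 2 of the 9, Cd68 and Mrc1, both higher, against 16.4% of all tested genes, and for Cd163. The share in obese tumors is near that of all genes. Without the 5 tumors that held muscle markers, 4 members fell in the lean host and 8 rose in the obese host. The median log2 fold changes of the members there were -3.39 and 2.52. No share of all tested genes was taken for that fit, so its counts are not read as a result about the members. Without obese tumor 4 after ETS, 2 members rose in obese tumors (Cd68 and Itgam), against 21.5% of all tested genes. This share of the members is near that of all genes. Without obese tumor 3 before therapy, 3 rose, against 2636 of 16209 tested genes.

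**Figure D2:**
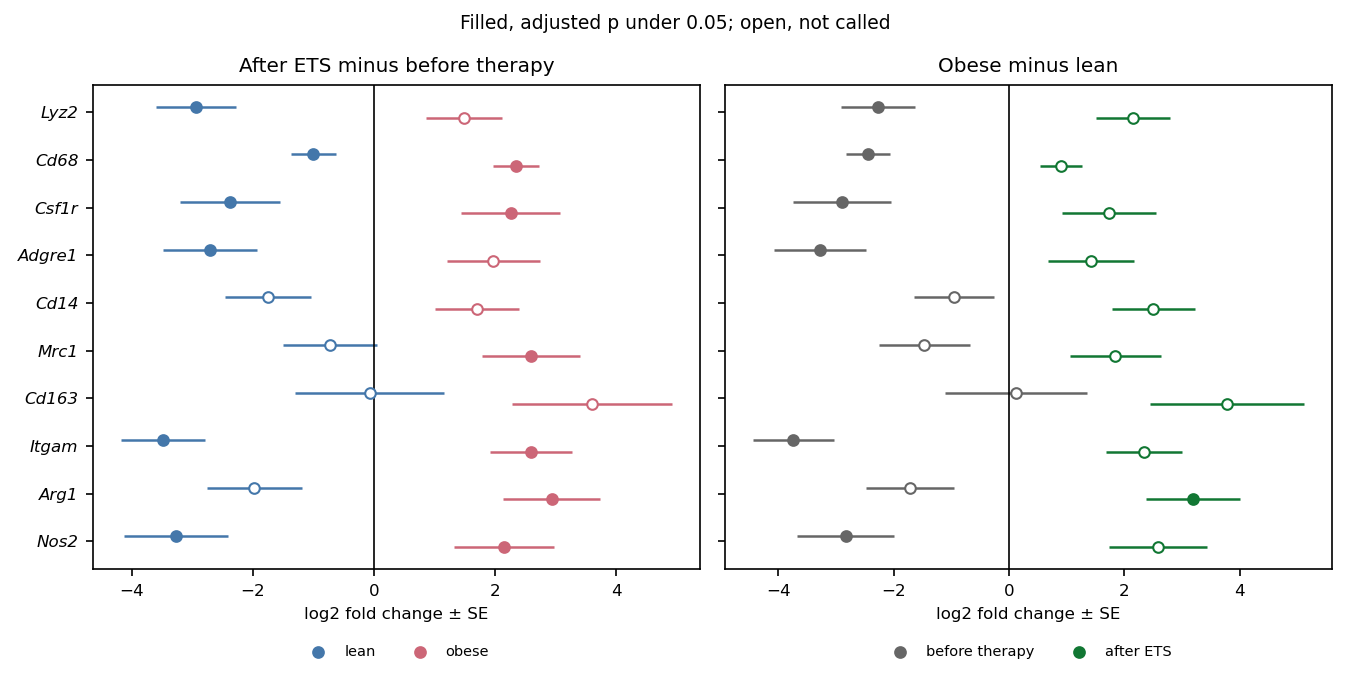
Log2 fold changes of the 10 macrophage genes with their standard errors, for tumors after ETS against before therapy in lean and obese tumors (left) and for obese against lean tumors before therapy and after ETS (right). Filled points passed an adjusted p of 0.05 and open points did not, and Cd163 comes from the fit without the exclusion of low counts. The 9 tested members lie between -3.49 and -0.72 in lean tumors and between 1.48 and 2.93 in obese tumors.

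The difference between the effects of ETS was tested directly. Of the 9 tested members, 8 had a higher effect in obese than in lean tumors, all except Mrc1, against 10.1% of all tested genes. These differences ranged on the log2 scale from 3.34 ± 0.53 for Cd68 (adjusted p = 0.000574) to the value given for Itgam. For Nos2 the difference was 5.41 ± 1.19 (adjusted p = 0.00596), and for Arg1 it was 4.91 ± 1.12 (adjusted p = 0.00733). For Mrc1 it was 3.32 ± 1.12 (adjusted p = 0.0542), and for Cd163 3.67 ± 1.77 (adjusted p = 0.230). Without obese tumor 4 after ETS 7 of the 8 were called, against 9.80% of all tested genes, with Nos2 at 3.50. Cd14 was lost, at 1.98 in place of 3.46. Without the tumors that held muscle markers all 8 were called, in the fit for which no share of all genes was taken.

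Before therapy, obese tumors had lower levels of most macrophage genes than lean tumors. Lyz2, Cd68, Csf1r, Adgre1, Itgam and Nos2 were lower in obese tumors, 6 of the 9 tested members, against 12.9% of all tested genes. Each of the 6 was lower in every obese tumor than in every lean tumor, against 14.4% of all tested genes. The largest difference was that of Itgam, which was 13.4-fold lower (log2 fold change -3.74 ± 0.70, adjusted p = 0.00124), and the smallest that of Lyz2 (-2.27 ± 0.65, adjusted p = 0.0172). The alternative-state members Mrc1 (-1.47 ± 0.79, adjusted p = 0.186), Arg1 (-1.72 ± 0.77, adjusted p = 0.114) and Cd163 (0.12 ± 1.23, adjusted p = 1) were not called, nor was Cd14. With single tumors left out, the call was lost in 1 of 16 fits for Lyz2, in 3 for Csf1r and in 2 for Nos2. Without the tumors that held muscle markers, 3 members were called lower, Cd68, Adgre1 and Itgam, with no share of all tested genes taken.

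The comparison of obese with lean tumors after ETS shares its tumors with the comparisons above and gave positive values for all 9 tested members, of which only Arg1 passed the threshold (3.19 ± 0.81, adjusted p = 0.0372), against 3.28% of all tested genes. At an unadjusted p under 0.05, 8 members were higher, against 13.5% of all tested genes. Lyz2, at 43.9 CPM or more in obese tumors and 40.0 CPM or less in lean tumors, did not overlap (2.15 ± 0.65, adjusted p = 0.0617), and neither did Mrc1 (1.84 ± 0.79, adjusted p = 0.163), against 6.39% of all tested genes. Cd163 did not overlap either and was not called in the fit without the exclusion of low counts (3.78 ± 1.34, adjusted p = 0.152). The call of Arg1 was lost in 5 of 16 fits that left out 1 tumor, among them the fit without obese tumor 4 after ETS. It was also lost without the tumors that held muscle markers.

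Per length, Lyz2 and Cd68 were the most abundant members in every group. Before therapy in lean tumors, Lyz2 stood apart at the top, followed by Cd68 at 139 ± 43.7 TPM, and Cd163 stood apart at the bottom at 1.12 ± 1.38 TPM. Arg1, Csf1r, Adgre1, Itgam, Mrc1, Nos2 and Cd14 lay between 41.5 ± 21.9 and 4.82 ± 2.16 TPM, and neighbors in this order overlapped. After ETS in lean tumors, Cd68 at 53.4 ± 16.6 TPM and Lyz2 at 39.2 ± 22.9 TPM overlapped, and Nos2 was lowest at 0.703 ± 0.231 TPM. After ETS in obese tumors, Cd163 reached 14.5 ± 14.5 TPM and Nos2 was lowest at 4.95 ± 7.56 TPM, with every neighbor overlapping.

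To set the inflammatory marker against the others within each tumor, the difference of log2 CPM between Nos2 and Arg1 was taken. Since CPM is not corrected for length, only shifts between groups are read from it. It was -1.26, 0.29, -0.82 and -0.62 in lean tumors before therapy and -2.28, -1.85, -3.11 and -0.85 after ETS. In obese tumors it was -2.20, -1.70, -2.44 and -1.66 before therapy and -3.19, -2.20, -3.67 and -2.48 after ETS. Every obese tumor before therapy was below every lean one, while lean tumors before and after ETS overlapped, with tumor 4 after ETS above tumor 1 before therapy. The means were -0.60 ± 0.65, -2.02 ± 0.94, -1.999 ± 0.38 and -2.89 ± 0.67 (SD, n = 4) in the order lean before, lean after ETS, obese before and obese after ETS.

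The scavenger receptors were set against the mean log2 CPM of Csf1r, Adgre1 and Cd68. Mrc1 was at -1.13 ± 0.55 relative to this mean in lean tumors before therapy, at 0.17 ± 0.66 in lean tumors after ETS, at 0.39 ± 0.49 in obese tumors before therapy and at 0.80 ± 0.48 in obese tumors after ETS. Obese tumors before therapy were all above lean tumors before therapy, while lean tumor 4 after ETS, at -0.77, lay among the lean tumors before therapy. Cd163 followed the same order of means, with -6.32 ± 2.58, -3.61 ± 1.36, -2.19 ± 1.24 and -0.57 ± 0.87, and its first value rests on the prior count used for the 0 in lean tumor 3. Arg1 relative to the mean ranged from -2.87 to 2.17 over all tumors, and every pair of groups compared overlapped. Nos2 relative to the mean likewise overlapped in every comparison, with -1.87 ± 0.59 in lean and -1.76 ± 1.54 in obese tumors before therapy, and -2.73 ± 1.55 and -3.09 ± 1.53 after ETS. The obese tumors before therapy thus lay 0.11 above the lean ones by this measure, against a difference of -1.40 for Nos2 minus Arg1. Nos2 relative to Mrc1 had means of -0.73 ± 0.91 before and -2.90 ± 2.16 after ETS in lean tumors and of -2.15 ± 1.97 before and -3.89 ± 1.499 after ETS in obese tumors, and the groups overlapped through lean tumor 4 after ETS at 0.20 and obese tumor 4 after ETS at -2.07. No test was run on these differences.

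**Figure D3:**
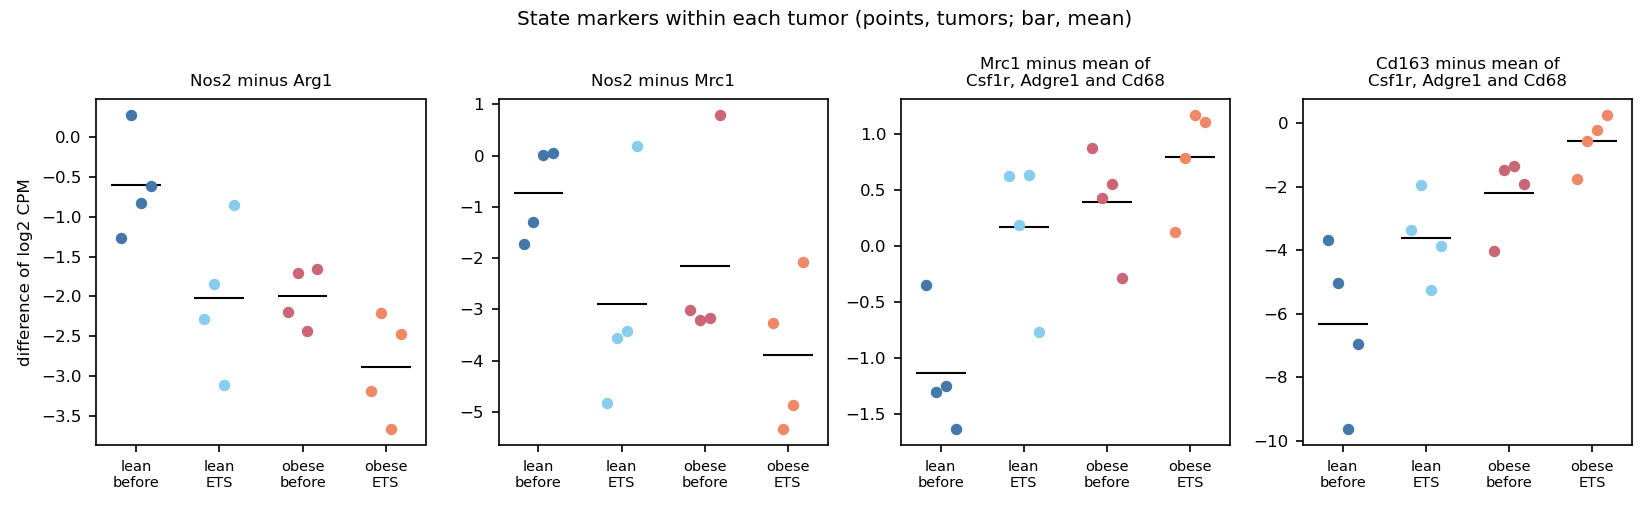
Differences of log2 CPM within each tumor, for Nos2 minus Arg1, Nos2 minus Mrc1, Mrc1 minus the mean of Csf1r, Adgre1 and Cd68, and Cd163 minus the same mean. Points are tumors 1 to 4 from left to right and bars are means over the 4 tumors of lean and obese groups before therapy and after ETS. Nos2 minus Arg1 is highest in lean tumors before therapy (mean -0.60) and lowest in obese tumors after ETS (mean -2.89), whereas Mrc1 relative to the mean is lowest and highest in these groups (-1.13 and 0.80).

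Wider lists were used to place the state markers among other genes of each state. The lists include the markers themselves, Nos2 in the inflammatory list and Mrc1, Cd163 and Arg1 in the alternative list, so these are part of the counts. The inflammatory list held 24 genes, of which 11 were tested. In lean tumors 7 fell and none rose after ETS, with a median log2 fold change of -2.75. The interferon-induced chemokines Cxcl9 (-5.40 ± 0.90, adjusted p = 0.000322) and Cxcl10 (-3.48 ± 0.47, adjusted p = 6.65e-05) fell the most together with Nos2. Cxcl9 was at 120 ± 40.4 CPM in lean tumors before therapy and at 2.86 ± 2.40 CPM after ETS. In obese tumors 7 of the 11 rose and none fell, with a median of 1.69. They included Saa3, an acute-phase protein (3.997 ± 1.17, adjusted p = 0.0142), Ccl5, a chemokine that draws T cells (3.54 ± 0.37, adjusted p = 2.16e-05), and Irf5, a factor of inflammatory macrophages (2.25 ± 0.51, adjusted p = 0.00338). Cxcl10 had a log2 fold change of -0.66 in obese tumors (adjusted p = 0.239).

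The alternative list held 28 genes, of which 18 were tested. In lean tumors 7 fell and none rose, with a median of -1.22. Tgm2, a transglutaminase (-3.61 ± 0.61, adjusted p = 0.000352), Cd5l, a secreted scavenger protein (-3.44 ± 1.29, adjusted p = 0.0409), and Msr1, a receptor for modified lipoproteins (-2.35 ± 0.59, adjusted p = 0.00536), had the largest fold changes. In obese tumors 16 of the 18 rose and none fell, with a median of 2.65. Among them, Cd5l rose by 4.38 ± 1.41 (adjusted p = 0.0223), the carbonyl reductase Cbr2 by 3.17 ± 1.03 (adjusted p = 0.0235) and the lectin Clec10a by 3.10 ± 1.12 (adjusted p = 0.0385). F13a1, the factor XIII chain made by macrophages, was at 17.0 CPM before and 105 CPM after ETS as means in obese tumors (2.63, adjusted p = 0.0338). Its log2 fold change in lean tumors was -0.78 (adjusted p = 0.490).

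The lists were counted against the same background as the members, and a difference between the lists was not tested. Without the exclusion of low counts, 14 of 23 inflammatory genes fell in the lean host and 7 rose in the obese host, against 7 and 12 of 28 alternative genes. In that setting 3585 of 28754 tested genes fell in the lean host and 3120 rose in the obese host. Without obese tumor 4 after ETS, 3 of 11 inflammatory and 8 of 18 alternative genes rose in obese tumors, with medians of 0.75 and 2.24, against 21.5% of all tested genes. The inflammatory share is then near that of all genes.

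**Figure D4:**
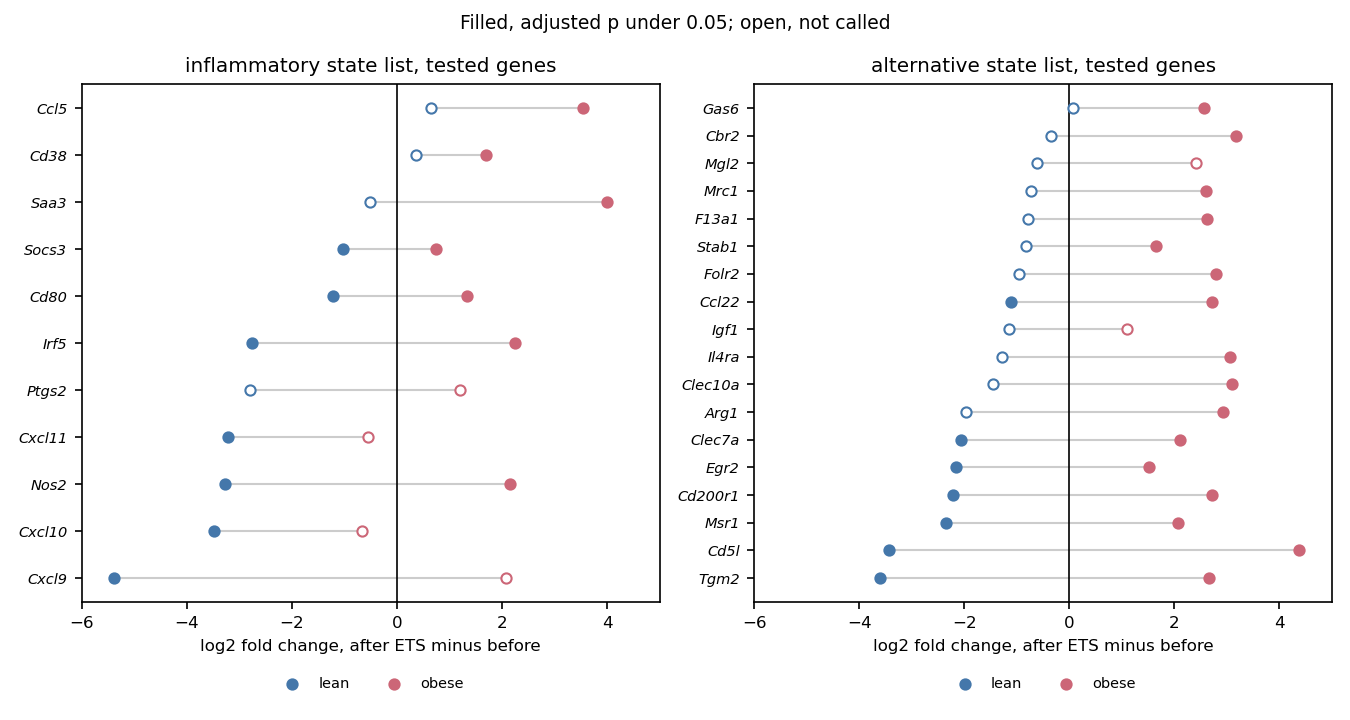
Log2 fold changes after ETS against before therapy for the tested genes of the inflammatory list (11 genes, left) and the alternative list (18 genes, right), in lean and obese tumors. Filled points passed an adjusted p of 0.05. In the alternative list, 7 genes are filled in lean and 16 in obese tumors, and in the inflammatory list 7 are filled in each.

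Other genes of macrophage identity moved in the same directions as the members. Of 20 listed, 18 were tested, of which 14 fell in the lean host and 16 rose in the obese host, with medians of -1.98 and 2.26. Cybb, the oxidase subunit of the respiratory burst (-3.48 ± 0.84, adjusted p = 0.00426), Ctss, a lysosomal protease (-3.40 ± 0.71, adjusted p = 0.00163), and Fcgr1, the high-affinity IgG receptor (-3.39 ± 0.71, adjusted p = 0.00160), fell the most in lean tumors. Siglec1, a sialic acid receptor (3.37 ± 0.89, adjusted p = 0.00801), Fcgr1 (2.99 ± 0.71, adjusted p = 0.00427) and the complement component C1qa (2.84 ± 0.80, adjusted p = 0.0121) rose the most in obese tumors. Before therapy all 18 were lower in obese than in lean tumors. Without obese tumor 4 after ETS, 14 rose in obese tumors, against 21.5% of all tested genes. Without the tumors that held muscle markers 17 rose there and 13 fell in lean tumors, with no share of all genes taken.

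Ligands and receptors for recruitment and growth were read separately. Of 11 tested receptors, 10 fell in the lean host and 9 rose in the obese host, Csf1r among them. Cd74, the receptor for macrophage migration inhibitory factor and the invariant chain of MHC class II, went from 691 ± 186 to 22.8 ± 20.3 CPM in lean tumors (-4.92 ± 0.84, adjusted p = 0.000380). Ccr2, which draws monocytes out of the blood, went from 27.6 ± 13.4 to 1.04 ± 0.744 CPM (-4.74 ± 0.91, adjusted p = 0.000871). Rises in obese tumors included Csf2rb2, a chain of cytokine receptors (2.54 ± 0.60, adjusted p = 0.00404), and C3ar1, the receptor for complement C3a (2.47 ± 0.62, adjusted p = 0.00623).

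Of 12 tested ligands, 7 fell and 1 rose in lean tumors, while 7 rose and none fell in obese tumors. The chemokines Ccl4 (-4.10 ± 0.68, adjusted p = 0.000294) and Ccl3 (-3.35 ± 0.78, adjusted p = 0.00339) fell in lean tumors, where C3 also fell (-3.00 ± 0.90, adjusted p = 0.0143). The monocyte chemoattractants Ccl8 (3.18 ± 0.97, adjusted p = 0.0170), Ccl7 (2.64 ± 0.51, adjusted p = 0.00111) and Ccl12 (2.45 ± 0.52, adjusted p = 0.00216) rose in obese tumors. The 22 transcription factors of lineage and state, all tested, split into 14 that fell in lean tumors and 12 that rose in obese tumors. Spi1 itself fell in lean tumors by 2.42 ± 0.61 (adjusted p = 0.00530) and rose in obese tumors by 2.34 ± 0.62 (adjusted p = 0.00786). Irf8 (-3.58 ± 0.46, adjusted p = 4.49e-05) and Nr1h3, the liver X receptor alpha (-2.70 ± 0.64, adjusted p = 0.00365), fell in lean tumors, and Cebpa (1.99 ± 0.60, adjusted p = 0.0169) rose in obese tumors.

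Lists around single members were read last. Of 14 genes of arginine use, which include Arg1 and Nos2, 3 fell and 2 rose in lean tumors and 3 fell and 4 rose in obese tumors. These shares are near those of all tested genes (22.8%, 21.0%, 19.0% and 21.2%). Ass1, which rebuilds arginine from citrulline, rose in both, in lean tumors by 2.17 ± 0.24 (adjusted p = 1.28e-05) and in obese ones by 2.41 ± 0.24 (adjusted p = 1.60e-05). The arginine transporter Slc7a1 fell in both, by 0.89 ± 0.12 (adjusted p = 5.65e-05) and by 0.53 (adjusted p = 0.00267). Another transporter, Slc7a2, rose in obese tumors (2.17 ± 0.51, adjusted p = 0.00396). A list of Itgam with its partners and kin had 9 tested genes, of which 7 fell in lean and 8 rose in obese tumors, with Itgam itself in both counts. Itgal (-4.49 ± 0.55, adjusted p = 3.00e-05) and Icam1 (-2.61 ± 0.47, adjusted p = 0.000560) fell in lean tumors. Fcgr3 (2.37 ± 0.64, adjusted p = 0.00942) and Icam1 (2.24 ± 0.47, adjusted p = 0.00199) rose in obese tumors.

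Of 14 tested genes of the Cd14 and Toll-like receptor 4 complex, including the uncalled Cd14 itself, 6 fell and 1 rose in the lean host, and 7 rose in the obese host. Cd180 and its partner Ly86 were among them, with log2 fold changes of Cd180 of -3.26 ± 0.52 in the lean host (adjusted p = 0.000217) and 2.14 ± 0.51 in the obese host (adjusted p = 0.00441). Of 8 tested genes of heme handling around Cd163, 2 rose in each host and none fell, near the 21.0% and 21.2% of all tested genes that rose. Slc40a1, the iron exporter, rose by 1.61 ± 0.53 in the lean host (adjusted p = 0.0227) and by as much in the obese host (1.61 ± 0.53, adjusted p = 0.0253). Of 13 tested paralogs of members, 5 fell in lean and 6 rose in obese tumors, among them Itgax, the CD11c chain, which fell in lean tumors by 2.53 ± 0.63 (adjusted p = 0.00480) and rose in obese ones by 1.82 ± 0.66 (adjusted p = 0.0388), and Mrc2, which rose in obese tumors (2.41 ± 0.56, adjusted p = 0.00379).

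Markers of other cells were read beside the members. Neutrophil markers, of cells that also carry Lyz2 and Itgam, summed to at most 32.1 CPM (obese tumor 4 after ETS) and 21.8 CPM (obese tumor 4 before therapy), and to between 0.823 and 15.6 CPM in the other tumors. All 12 had a count of 0 in some tumor, and Camp and Elane were at 0 in all. Of 5 tested monocyte markers 4 fell in lean and 4 rose in obese tumors, and of 5 tested dendritic cell markers 5 fell and 3 rose. Of all tested genes, 22.8% fell in lean and 21.2% rose in obese tumors. Without obese tumor 4 after ETS, 2 monocyte and 1 dendritic cell markers rose, against 21.5% of all tested genes. The dendritic cell share is then near that of all genes. T cell markers summed to between 45.4 and 78.7 CPM in lean tumors before therapy, 5.48 and 19.5 CPM after ETS, 7.95 and 13.8 CPM in obese tumors before therapy, and 16.2 and 39.4 CPM after ETS. These sums include Thy1, which is also in the fibroblast list. Of the 2 tested T cell markers, 2 fell in lean tumors, while 1 rose and 1 fell in obese tumors. NK cell markers summed to between 17.8 and 31.9 CPM in lean tumors before therapy and to at most 4.36 CPM in the other tumors. Their part in the results of members that other cells share was not tested.

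Fibroblast markers moved with the members. Of 8 tested, 4 fell in the lean host and 7 rose in the obese host, with medians of -1.76 and 2.89. They summed to between 662 and 2358 CPM in lean tumors before therapy, 217 and 718 CPM in lean tumors after ETS, 193 and 702 CPM in obese tumors before therapy and 723 and 5778 CPM in obese tumors after ETS. Of 8 tested endothelial markers, 1 fell in lean and 6 rose in obese tumors. Of 10 melanocyte markers, 3 rose in lean and 5 in obese tumors. Adipocyte markers (Adipoq, Plin1, Cidec, Lep and Retn), none of which had counts in every tumor, summed to 33.5, 26.1 and 27.5 CPM in obese tumors 1 to 3 after ETS, to 32.5 CPM in obese tumor 2 before therapy and to at most 3.65 CPM in the other tumors. Obese tumor 2 before therapy was also the highest of its group for Lyz2, Cd68, Csf1r, Adgre1, Mrc1, Cd163 and Itgam. Obese tumor 4 after ETS held 0.280 CPM of adipocyte markers and the highest level of each of the 10 members in its group. Without the 4 tumors with over 10 CPM of adipocyte markers, obese tumor 4 was the lone obese tumor after ETS and was assumed to vary like the other groups. Calls of that fit are therefore not given. The median log2 fold change of the 9 tested members in it was 3.90 in obese tumors and -2.42 in lean tumors. It was 6.195 for the difference of the effects and -2.77 between obese and lean tumors before therapy. The part of fibroblasts, endothelial cells and melanoma cells in the changes of the members was not tested.

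**Figure D5:**
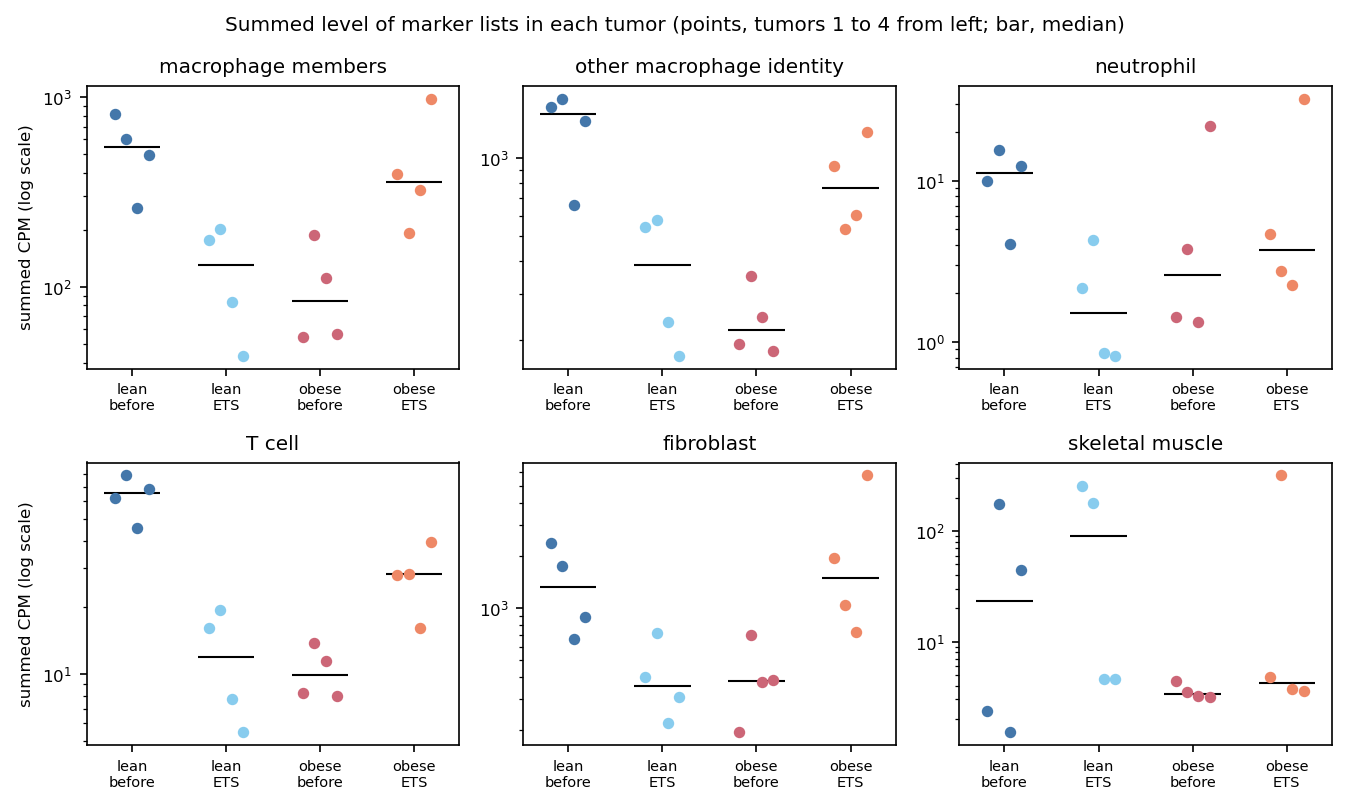
Summed CPM on a log axis of the 10 macrophage genes, 20 other macrophage genes, and the neutrophil, T cell, fibroblast and skeletal muscle lists in each tumor. Points are tumors 1 to 4 from left to right and bars are medians of lean and obese groups before therapy and after ETS. The members sum to between 261 and 814 CPM in lean tumors before therapy and between 43.5 and 202 CPM after ETS, and obese tumor 4 after ETS is highest for the members (980 CPM), fibroblast (5778 CPM) and neutrophil lists (32.1 CPM).

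The genes most like each member over the 16 tumors, by Pearson's r of log2 CPM among 13306 genes of at least 1 CPM on average, are given as a description, since the tumors share groups and libraries. Ms4a6c was among the 3 most alike for Csf1r (r = 0.991), Adgre1 (r = 0.987) and Lyz2 (r = 0.962). Tyrobp, the adaptor of myeloid receptors, was most like Lyz2 (r = 0.974), Tlr8 most like Adgre1 (r = 0.989) and Rassf4 most like Itgam (r = 0.987). Srgn, a granule proteoglycan, was most like both Cd14 (r = 0.917) and Nos2 (r = 0.916), and Clec4d, a lectin of monocytes and neutrophils, was most like Arg1 (r = 0.906). Mrc1 was most like Nxpe5 (r = 0.967), followed by Clec10a (r = 0.942), and Cd163 was most like Fcna (r = 0.940), with F13a1 also among its 3 (r = 0.920). Between members, r was lowest for Cd163 and Nos2, at 0.12.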

How the data were processed

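RNA of 16 B16F10 tumors was analysed, 4 in each of 4 groups, which were taken from the sample titles, with age, dose and course from the methods. The authors trimmed the reads with Trimmomatic, aligned them to mm10 with HISAT2 2.1.0 and quantified genes with StringTie 2.1.3b. Counts were deposited as whole numbers for each gene, without normalization. The deposited TPM values, made by the authors in the same step, were used for levels between genes and as an alternative, and the 16 columns of deposited FPKM values were not used. Whether the counting used strand is not given in the sources used here.

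As in the study's methods, 29568 genes at 0 counts in 1 or more tumors were dropped, which left 16209 of 45777, and scaling was by TMM. Differences were tested by quasi-likelihood in edgeR 4.0.16 (R 4.3.3) with a mean for each group over all 16 tumors, and Benjamini-Hochberg adjustment over all tested genes. The methods' exact test on counts with 1 added was an alternative. Standard errors come from the fold change and the F statistic. Log2 CPM used a prior count of 2. Totals were 47199949 to 61655287 counts, and limits for a count of 0 (3 counts) cover counting error only. No pair of tumors of a group agreed within sampling noise. The steps were tested on simulated data.

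All members are named. Of each list, at most 3 genes with the largest fold change among those called in a comparison with a mean of at least 1 CPM are named. Cxcl10 and Slc7a1 in obese tumors and F13a1 lie outside this rule and were chosen after their values were seen. The members, lists and rules were chosen with earlier results of these data known. Promoters come from RefSeq (GRCm38.p6), in which 5 members outside chromosome 18 were matched, while Adgre1, Arg1 and Nos2 had no entry. Alternatives were DESeq2 1.42.0 and its size factors, no exclusion of low counts, filterByExpr, limma-voom with sample weights and limma on log2(TPM + 1) or log2(TPM + 0.1) (limma 3.58.1), only the 2 groups compared, the replicate number as a block, and each tumor left out. Fits without the tumors that held over 10 CPM of muscle or adipocyte markers were chosen after seeing the data, as were the fits of Cd163 with single tumors left out or with the block, which used no exclusion of low counts. Some genes that this rule names are not reported here.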

Additional observations from a re-analysis of the deposited data

Results flagged for a closer look

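In 6 of 40 groups of 4 tumors (10 members in 4 groups), 1 tumor stood far from the other 3, by a gap that took up most of the range (Dixon's test). The members were measured in the same tumors and are correlated, so the 40 groups are not independent. The count is therefore not set against a rate given by chance. Obese tumor 4 after ETS was the high tumor for Cd14 (18.9 CPM), Cd163 (80.1 CPM), Itgam (61.2 CPM) and Nos2 (34.2 CPM). Lean tumor 1 before therapy was high for Cd14 (6.96 CPM), and obese tumor 2 before therapy was high for Itgam (7.84 CPM).

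The effect of ETS differed between obese and lean tumors in the test of the difference for 8 members, with log2 differences (obese minus lean) of 4.42 for Lyz2, 3.34 for Cd68, 4.63 for Csf1r, 4.69 for Adgre1, 3.46 for Cd14, 6.08 for Itgam, 4.91 for Arg1 and 5.41 for Nos2.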

How the results depend on the processing

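Single-gene values were followed under the settings that left out no single tumor, apart from the fit without the tumors with adipocyte markers. The largest gains were 10 calls with DESeq2, which lost none, and 8 with the exact test, which lost 1. The most calls lost were 6, without the tumors that held muscle markers, where 2 were gained. In these settings 1 value changed direction, Cd163 in lean tumors with filterByExpr (0.0019, not called). With single tumors left out, Cd163 ranged from -1.55 to 1.26 in lean tumors and from -0.85 to 1.45 between obese and lean tumors before therapy.

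When single tumors were left out, the count of members called was 4 to 8 in lean tumors and 2 to 9 in obese tumors. It was 7 to 9 for the difference, 4 to 7 before therapy and 0 to 5 after ETS. Without lean tumor 1 before therapy, 4 members fell in lean tumors, against 3773 of 16209 tested genes. Without obese tumor 2 after ETS, 8 fell there and 9 rose in obese tumors, against 3679 and 2984. Before therapy it was 7 in that fit and 4 without obese tumor 1 before therapy, against 2089 and 1827 lower genes. For the difference, it was 7 without lean tumor 3 after ETS and 9 without lean tumor 3 before therapy, against 1422 and 1545. For obese tumors, it was 2 without obese tumor 4 after ETS, near the 21.5% of all tested genes that rose. It was 3 without obese tumor 3 before therapy, against 2636 of 16209. The comparison of hosts after ETS gave 5 without obese tumor 2 after ETS, against 832 higher genes. It gave 0 without lean tumor 1 after ETS, against 270. Between obese and lean tumors before therapy, it was 3 without the tumors that held muscle markers, with no share of all genes taken. Between obese and lean tumors after ETS, 1 was called, against 531 higher genes of 16209. It was 2 with DESeq2's size factors and in log2(TPM + 0.1), against 557 and 696. It was 4 by the exact test and 5 by DESeq2, against 727 and 1125 higher genes. It was 0 without the exclusion of low counts, against 255 higher genes of 28754. It was also 0 in log2(TPM + 1), in a fit of the 2 groups alone and with the replicate block. These gave 663, 50 and 882 higher genes of 16209. Without the tumors that held muscle markers it was 0 as well, with no share of all genes taken. The cause was not tested.

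With log2(TPM + 1), the shift of Nos2 minus Arg1 was -0.40 in lean tumors and -0.58 before therapy, and that of Cd163 minus the mean of Csf1r, Adgre1 and Cd68 was 1.30 after ETS, against -1.42, -1.40 and 3.03 in log2 CPM. In this scale the median of all genes shifted by -0.28 in lean tumors, with 1351 higher and 7281 lower calls in place of 3410 and 3689.

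The replicate numbers were not taken to pair the tumors, since the labels give no more than a number. Deviations of same-numbered tumors correlated between -0.11 and 0.45 (24 pairs, median 0.07). Those of tumors with other numbers correlated between -0.58 and 0.51 (72 pairs, median -0.04). These overlapping ranges do not settle whether the numbers pair tumors. With the replicate block, the count was 6 in lean tumors, 6 in obese tumors, 9 for the difference and 6 before therapy.

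An exact test and a fit of 2 groups could not be made for the difference of the effects, which needs all 4 groups.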
